A study of Mus musculus with 6 samples.

Results

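Libraries sequenced side by side in 1 lane of a flow cell were compared here, so that each ratio of 5-methylcytosine (5mC) to chromatin reads was taken between libraries with the same run and read length. The first pair was 5mC replicate 1 and H2A.B ChIP, with 42 bp reads, and the second, used as a check, was 5mC replicate 3 and IgG ChIP, with 50 bp reads. These are 4 of the 6 libraries of the series. They were chosen by lane and antibody, not by measured values. All came from C57Bl/6 mouse ES (embryonic stem) cells, grown with leukaemia inhibitory factor (LIF) and no feeder cells, and the labels give no other treatment and no altered genotype. 5mC was pulled down from sheared, denatured DNA with the mouse monoclonal antibody 33D3 (methylated DNA immunoprecipitation, MeDIP). H2A.B was pulled down from formaldehyde-crosslinked chromatin with a rabbit antibody made by the submitters (chromatin immunoprecipitation, ChIP), and the control with rabbit IgG. For the IgG library 1 label field names the H2A.B antibody, and its title and antibody field, which give IgG, were used. MeDIP and ChIP libraries also differed in PCR cycles (15 and 20) and fragment size (100 to 400 and 200 to 400 bp), so antibody and assay cannot be told apart within a pair.

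5mC lies mainly at CpG dinucleotides, and in ES cells most CpGs are methylated except those of CpG islands. MeDIP therefore recovers DNA by its density of methylated CpGs. H2A.B is a short histone H2A variant that forms less stable nucleosomes and is known from active chromatin. A non-specific IgG recovers background chromatin, whose reads follow shearing, base composition and how uniquely a region can be mapped. The reads are genomic DNA, so the cell type label has no marker check here. No annotation or sequence of build mm9, to which the reads were aligned, was used, so no gene was placed and regions are given by mm9 coordinates counted from 1.

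Lane mates were separated only by a 6-base index read, which is shown because the comparison rests on it. Capitals mark the bases that differ between the lane mates, at 6 of 6 positions in the first pair and 5 of 6 in the second.
5mC replicate 1: TGACCA
H2A.B ChIP: CAGATC
5mC replicate 3: TAGCtT
IgG ChIP: CTTGtA
Every read name was examined. All 3503839 reads of 5mC replicate 1 and all 9266471 of H2A.B came from lane 3 of 1 flow cell, and all 1574706 of 5mC replicate 3 and all 811727 of IgG ChIP from lane 2 of another. On autosomes 1346417, 7690224, 774788 and 520319 distinct reads remained, counting 1 read per chromosome, 5′ position and strand. The median 100 kb window held 41 reads of 5mC replicate 1, 288 of H2A.B, 30 of 5mC replicate 3 and 20 of IgG ChIP. Strand balance differed between the flow cells, which also differ in read length. Plus-strand reads made up 55.3% and 52.7% of the distinct reads of 5mC replicate 1 and H2A.B in the windows kept, above 50% on 19 of 19 autosomes in both. In 5mC replicate 3 and IgG ChIP they made up 45.5% and 46.2%, above 50% on 0 of 19. Outside the pairs, 5mC replicate 2 and IgG MeDIP, both from lane 1 of the second flow cell, stood at 45.1% and 45.0%.

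The first question was whether 5mC and its lane mate differed in where their reads lay. In the 42 bp lane they did. In the 50 bp lane the ratio of 5mC replicate 3 to IgG ChIP varied across the autosomes hardly more than the counting of reads allows. Spread was expressed as the mean squared deviation of the 5mC count from its share of the reads of the pair, divided by the binomial variance, so that counting alone gives 1. In 100 kb windows it was 8.19 for the 42 bp pair and 1.04 for the 50 bp pair. This measure grows with depth, so all libraries were also thinned to 498417 reads. It then stood at 2.45 and 1.03 in 100 kb windows, and at 7.87 and 1.15 in 1 Mb windows. The other ratios among the 4 libraries, all taken between lanes, stood at 1.73 to 3.74 in 100 kb windows at that depth, lowest for 5mC replicate 3 over H2A.B and highest for 5mC replicate 1 over IgG ChIP. With PCR copies included the 50 bp pair stood at 4.32. Both libraries of this pair also shared exact read positions 31.7 times as often as neighbouring ones, as given at the end. Whether reads or samples were mixed between the indexes of a lane was not tested, in this lane or in the 42 bp lane. The 50 bp ratio therefore serves as a check only as far as its labels hold, and the 42 bp ratio is read under the same limit.

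A ratio with regional structure should be found again when it is computed from plus-strand and minus-strand reads separately. At equal depth the 42 bp ratio agreed between strands at Spearman's rho 0.0858 in 10 kb, 0.289 in 100 kb and 0.573 in 1 Mb windows. The 50 bp ratio agreed at 0.00198, 0.00925 and 0.0663. 5mC replicate 3 over H2A.B, with the same 5mC library, reached 0.552 in 1 Mb windows, and that of H2A.B to IgG ChIP 0.615. Both libraries of the 50 bp lane thus carried regional structure relative to the 42 bp lane, while little of it was found between them. These correlations are descriptions over 234301, 23972 and 2411 windows, which are not independent replicates. A p was not computed, since each side of a ratio was 1 library.

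**Figure D1:**
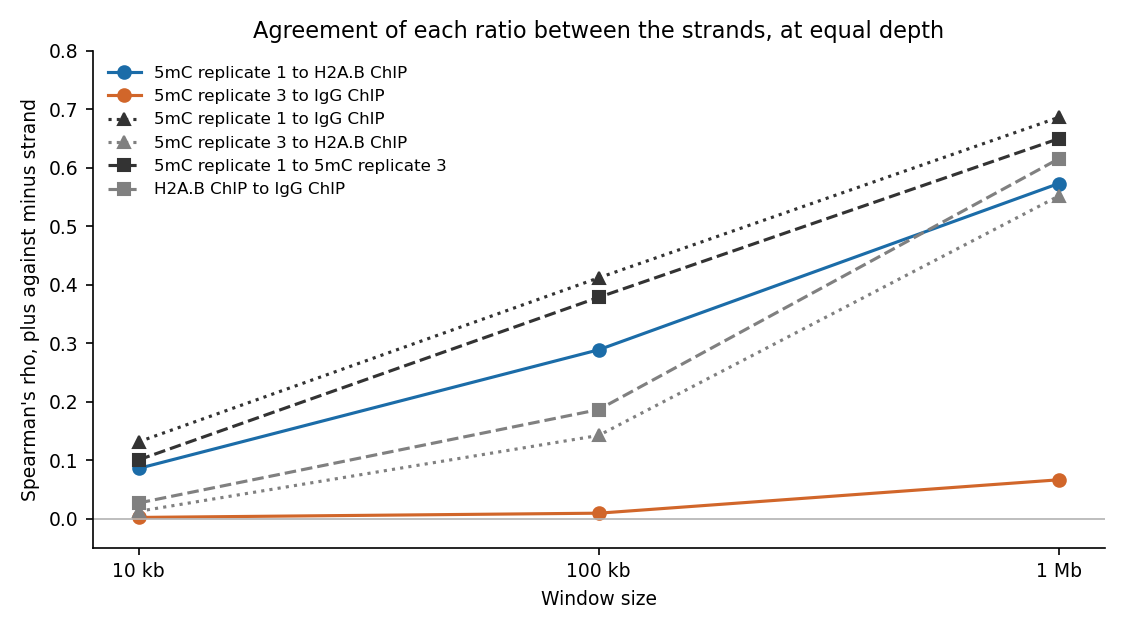
Spearman's rho between each ratio computed from plus-strand and from minus-strand reads (vertical axis), by window size (horizontal axis), with every library thinned to 498417 distinct reads. The ratio of 5mC replicate 3 to IgG ChIP stays at or below 0.0663, while each of the other 5 ratios reaches 0.552 or more in 1 Mb windows.

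The second question was whether the 2 lane-mate ratios, which share neither a library nor a lane, agreed. They agreed weakly. Across 23972 windows of 100 kb rho was 0.0640 (Pearson's r 0.0611), across 234301 windows of 10 kb 0.0276 (0.0274), and across 2411 windows of 1 Mb 0.124 (0.131). Within single autosomes rho in 100 kb windows ranged from 0.00985 to 0.116 and was above 0 on 19 of 19. With the ChIP partners exchanged between lanes, which also gives ratios without a shared library, rho turned to -0.438 in 100 kb and -0.744 in 1 Mb windows. The ratios between lanes within an assay, 5mC replicate 1 to replicate 3 and H2A.B to IgG ChIP, agreed at 0.458 and 0.749. Summed over these 4 libraries, a region's level was therefore shared more closely between the assays of a lane than between lanes of an assay. Single pairs did not all follow this. At equal depth in 100 kb windows the spread was 2.45 and 1.03 for the 42 bp and 50 bp lane mates. Between lanes it was 3.50 for 5mC and 1.82 for ChIP, the latter below the 42 bp lane mates. Flow cell, read length and lane cannot be told apart in the difference between lanes. Nor can a difference between cell cultures, since the labels do not state which libraries shared a culture.

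**Figure D2:**
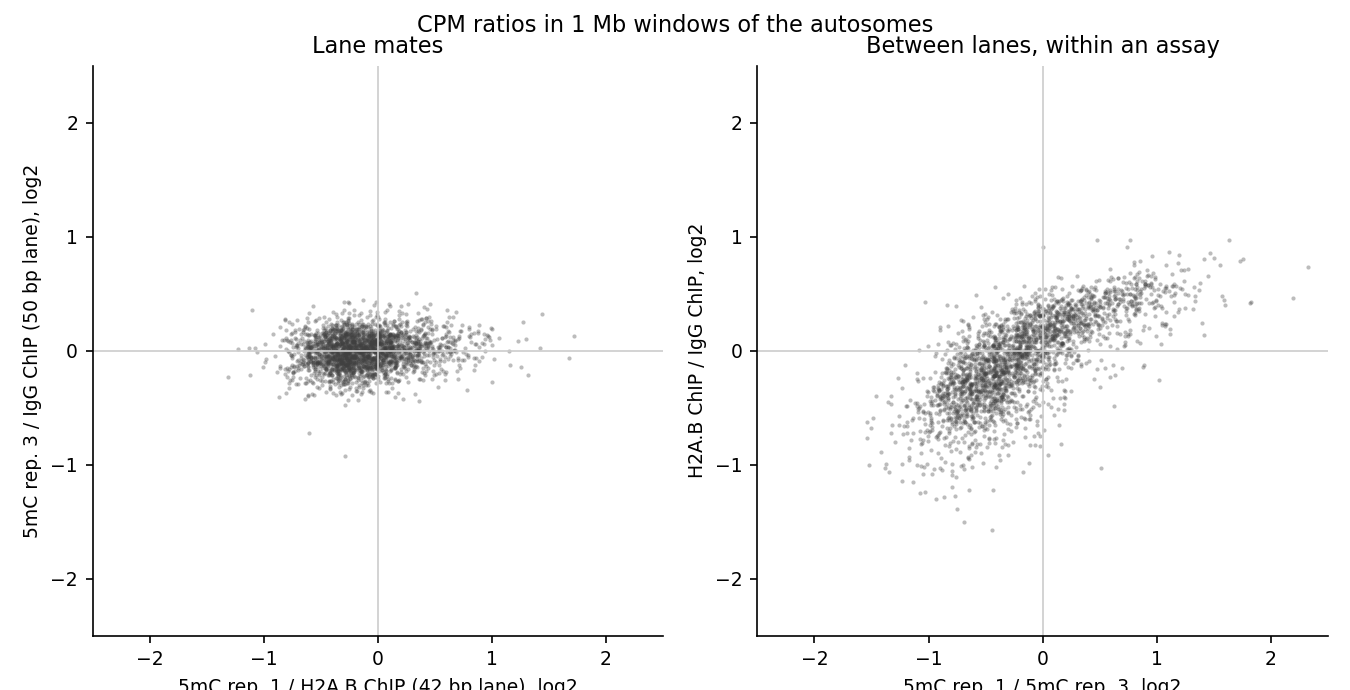
Each point is one of 2411 autosomal windows of 1 Mb, with log2 CPM ratios on both axes and the same scale in both panels. The lane-mate ratios (left) form a cloud that is wide for the 42 bp lane and narrow for the 50 bp lane, with rho 0.124, while the ratios between lanes within an assay (right) rise together, with rho 0.749.

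The size of the agreement was small. When the 100 kb windows were ranked by the 42 bp ratio and split into 10 groups of equal size, that ratio went from 0.427 in the lowest group to 1.87 in the highest. The 50 bp ratio, not used for the ranking, went from 0.975 (95% interval 0.963 to 0.987) to 1.04 (1.03 to 1.05). It lay below 1 in the lowest 6 groups and above 1 in the highest 4, with intervals that covered 1 in the fifth, sixth and seventh. Intervals are exact Clopper-Pearson intervals from the share of reads, cover counting error only and treat reads as independent.

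The levels of all 6 libraries along this ranking show what moved. Between the lowest and the highest group 5mC replicate 1 went from 0.340 to 2.30 times its mean over all windows, and H2A.B from 0.796 to 1.23. 5mC replicate 3 went from 0.850 to 1.19 and IgG ChIP from 0.872 to 1.15, so both libraries of the 50 bp lane followed the ranking almost equally. Of the libraries outside the pairs, 5mC replicate 2 went from 0.628 to 1.44 and IgG MeDIP, the MeDIP background, from 0.569 to 1.61. Windows rich in 5mC replicate 1 were thus also richer in IgG MeDIP, over a wider range than 5mC replicate 2, and the part of 5mC itself in the 42 bp ratio was not tested.

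**Figure D3:**
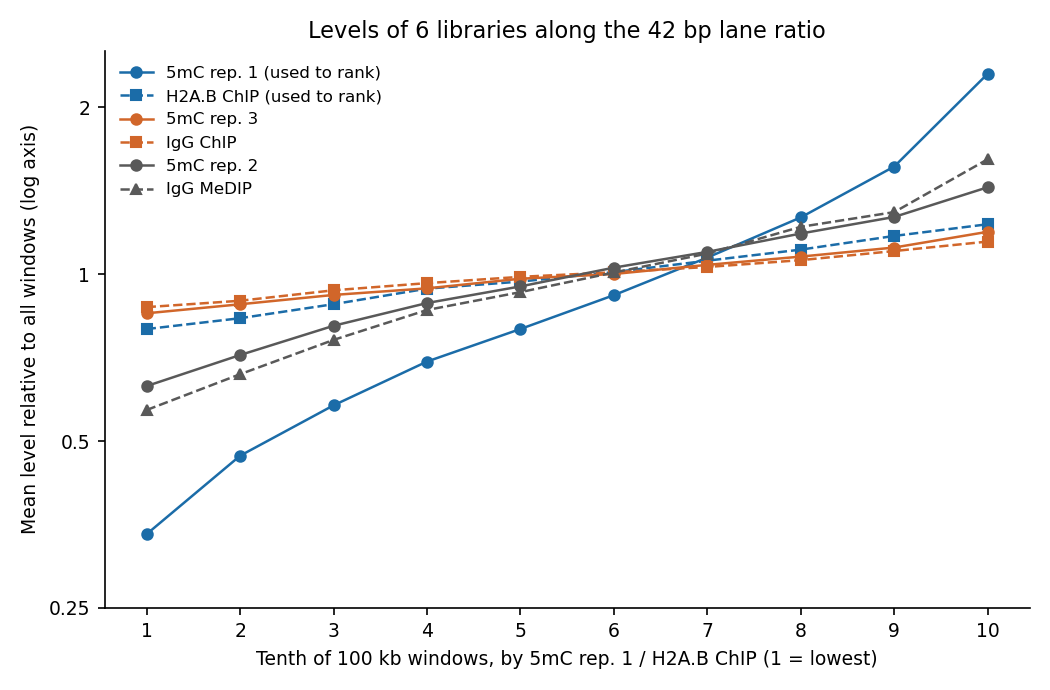
Mean level of each library relative to its mean over all 100 kb windows (vertical log axis) in 10 equal groups of windows ranked by the 42 bp ratio (horizontal axis). The lines of 5mC replicate 3 and IgG ChIP lie close together from 0.850 and 0.872 to 1.19 and 1.15, and IgG MeDIP ends at 1.61, above 5mC replicate 2 at 1.44.

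Single 100 kb windows were called 5mC-high where the CPM ratio was at least 1.5 and its 95% lower bound above 1, and ChIP-high by the mirrored rule. CPM is a library's reads in a window scaled to its distinct reads in all windows kept. In the 42 bp lane 2246 windows were 5mC-high (9.37%) and 5860 ChIP-high (24.4%). The median log2 ratio of this lane was -0.200, so the typical window lay towards ChIP-high. Calls were counted from an even ratio and not from this median, so the 2 shares are not centred alike. In the 50 bp lane 439 were 5mC-high (1.83%) and 472 ChIP-high (1.97%). The spread of the 50 bp ratio in these windows was 1.04, where counting alone gives 1. The number of its calls was not told apart from counting error, since the share that counting alone would give was not computed. The spread is a mean over all windows, so it does not decide single calls. Some lay far from an even ratio. The 50 bp ratio was 0.343 (0.242 to 0.483) at chromosome 2, 22400001 to 22500000. It was 1.89 (1.49 to 2.43) at chromosome 7, 71600001 to 71700000. Whether single calls exceeded counting error, given the number of windows, was not tested. Both lanes called 67 windows 5mC-high, which is 2.98% of the 42 bp calls and 15.3% of the 50 bp calls. Both called 136 ChIP-high, 2.32% of the 42 bp calls and 28.8% of the 50 bp calls. The share of 42 bp calls that the 50 bp lane repeated, 2.98% and 2.32%, stood beside a background of 1.83% and 1.97%. The share of 50 bp calls that the 42 bp lane repeated, 15.3% and 28.8%, stood beside 9.37% and 24.4%. Most calls of one lane were not calls of the other. For the 42 bp calls this was set by number, since the 50 bp lane made only 439 and 472 calls against 2246 and 5860.

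In the 67 windows that were 5mC-high in both lanes, the libraries that had not chosen them were raised on average as well. Relative to the 15282 windows called in neither lane, 5mC replicate 2 stood at 1.53 and IgG MeDIP at 1.78. In the 136 ChIP-high windows they stood at 0.70 and 0.623. The libraries that chose the windows stood at 2.45 (5mC replicate 1), 1.31 (H2A.B), 1.52 (5mC replicate 3) and 0.775 (IgG ChIP) in the first set, and at 0.451, 0.835, 0.647 and 1.33 in the second. All calls of the 42 bp lane, shared ones included, were set against the 15866 windows not called in that lane. They gave similar levels for 5mC replicate 2 and IgG MeDIP, 1.39 and 1.58 in 5mC-high windows and 0.685 and 0.640 in ChIP-high windows. All calls of the 50 bp lane, against the 23061 windows not called there, gave 1.17 and 1.17, and 0.956 and 0.941. The levels outside the pairs thus differed between the directions of the 42 bp calls, most of which the 50 bp lane did not share. These sets overlap and their references differ.

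Of the 10 windows ranked highest by the smaller of their lower bounds, the first, chromosome 5, 9800001 to 9900000, held 68 reads of 5mC replicate 1 and 202 of H2A.B, a ratio of 1.98 (1.48 to 2.62). It held 28 reads of 5mC replicate 3 and 3 of IgG ChIP, a ratio of 6.23 with a counting interval of 1.92 to 32.01. The few IgG reads make this interval wide. 5mC replicate 3 stood at 0.933 times its median there and IgG ChIP at 0.15, so the high 50 bp ratio came with few IgG ChIP reads. 5mC replicate 2 (0.873) and IgG MeDIP (0.667) were below their medians too. Chromosome 9, 79700001 to 79800000, had the highest 42 bp ratio of the 10, 3.48 (2.87 to 4.22) from 171 and 289 reads. Its 50 bp ratio was 2.84 (1.29 to 7.09), from 34 and 8 reads. Chromosome 9, 100900001 to 101000000, was the best covered in the 50 bp lane, at 2.07 (1.25 to 3.56) from 65 and 21 reads, and at 2.32 (1.97 to 2.74) in the 42 bp lane from 205 and 519. The other 7 began at 148400001 on chromosome 7, 29700001 on chromosome 17, 110600001 and 12300001 on chromosome 12, 74400001 on chromosome 18, 6100001 on chromosome 3, and 84200001 on chromosome 15. Their 42 bp ratios were 1.56 to 2.47 and their 50 bp ratios 2.12 to 2.82. They are described by the values that chose them, so these ratios are no test.

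At the ChIP-high end chromosome 2, 22400001 to 22500000, stood first. It held 27 reads of 5mC replicate 1 against 357 of H2A.B, a ratio of 0.445 (0.289 to 0.659), and 53 of 5mC replicate 3 against 103 of IgG ChIP, a ratio of 0.343 (0.242 to 0.483). IgG ChIP was high there, with 103 reads against a median of 20. At chromosome 1, 141900001 to 142000000, the counts were 24, 369, 18 and 30 in the same order, with ratios of 0.383 (0.242 to 0.578) and 0.400 (0.210 to 0.742). Neither 50 bp library stood as far from its median of 30 or 20 as IgG ChIP did in the first window. The other 8 were on chromosomes 3, 7, 9, 13, 14, 17 and, with 2 windows, 16, with 42 bp ratios of 0.442 to 0.509 and 50 bp ratios of 0.297 to 0.431.

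The lanes called 124 windows in opposite directions. Of these 38 were 5mC-high in the 42 bp lane and ChIP-high in the 50 bp lane, 1.69% of the 42 bp calls against a background of 1.97%, and 86 were the reverse, 1.47% against 1.83%. The widest gap in the first order was at chromosome 5, 50100001 to 50200000, with 112 and 187 reads (ratio 3.52, 2.76 to 4.48) in the 42 bp lane and 15 and 23 (0.435, 0.211 to 0.871) in the other. In the reverse order it was at chromosome 7, 71600001 to 71700000, with 50 and 946 reads (0.311, 0.229 to 0.413) and then 261 and 92 (1.89, 1.49 to 2.43). In that window 3 libraries stood above their medians of 288, 30 and 20 reads, and 5mC replicate 1 near its median of 41.

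In 1 Mb windows counting error was smaller than in 100 kb windows and the lanes parted clearly. The spread of the 50 bp ratio at this size was 1.27, where counting alone gives 1, so counting error still weighed heavily in that lane. The 42 bp lane had 108 windows 5mC-high (4.48%) and 179 ChIP-high (7.42%), and the 50 bp lane 0 (0%) and 2 (0.083%). The median log2 ratio of the 42 bp lane at this size was -0.151, again towards ChIP-high. The single window ChIP-high in both lanes lay at chromosome 8, 20000001 to 21000000, with 121 and 1075 reads (ratio 0.658, 0.540 to 0.794) and 77 and 85 reads (0.605, 0.439 to 0.833). The other 50 bp call lay at chromosome 1, 24000001 to 25000000, with 392 reads of 5mC replicate 3 and 498 of IgG ChIP, a ratio of 0.526 (0.459 to 0.601), where the 42 bp ratio was 0.819 (0.736 to 0.909). A single 100 kb window at 24600001, which the filter on high counts left out at that size, held 296 of these 498 IgG ChIP reads and 94 of the 392 of 5mC replicate 3. Without it 298 and 202 reads remained, the ratio was 0.984 (0.821 to 1.18), and the call was lost. In the chromosome 8 window all counts came from 1 window of 100 kb that passed the filter.

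The 108 5mC-high windows of the 42 bp lane formed 55 runs of adjacent windows, 10 of them of 3 Mb or more. The longest spanned 15 Mb of chromosome 12, from 100000001 to 115000000, and was chosen for description after its values were seen. 5mC replicate 1 stood there at 4.26 times its median 1 Mb window, H2A.B at 1.58, 5mC replicate 3 at 1.24 and IgG ChIP at 1.25. The 42 bp ratio over the run was 2.29 (2.25 to 2.32) and the 50 bp ratio 0.989 (0.949 to 1.03). 5mC replicate 2 stood at 1.76 and IgG MeDIP at 1.75, both between the 42 bp pair. From the 100 kb windows that passed the filter, 143 in this run, the 42 bp ratio was 2.10 (2.07 to 2.13), and all 15 windows of 1 Mb were still called 5mC-high. The ratio declined within the last 1 Mb of the run. In successive 100 kb windows from 114300001 it was 3.29, 2.76, 1.68, 1.14 and 0.656, and 5mC replicate 1 held 365, 284, 158, 76 and 35 reads. H2A.B held 653, 605, 553, 391 and 314 reads in the same windows, a smaller relative decline. 5mC replicate 3 held 28 to 43 reads there and IgG ChIP 14 to 34. A second run on the same chromosome, 84000001 to 90000000, had a 42 bp ratio of 1.71 (1.67 to 1.76) and a 50 bp ratio of 0.964 (0.901 to 1.03).

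**Figure D4:**
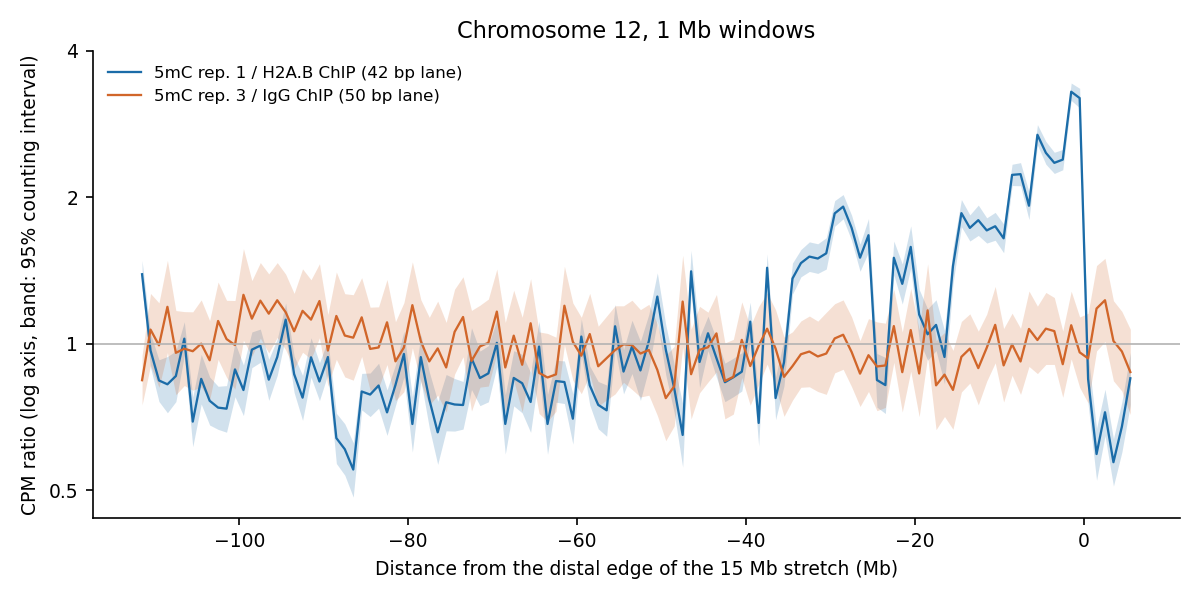
CPM ratio of 5mC to the lane-mate ChIP library (vertical log axis, with the 95% counting interval as a band) in 1 Mb windows of chromosome 12, by distance from the distal edge of the 15 Mb run (horizontal axis, Mb). The 42 bp ratio reaches 3.29 near the distal end of the run and is 0.846 in the first window past the run, a decline that 100 kb windows place within the last 1 Mb of the run. The 50 bp ratio is 0.989 over the run.

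Several other long 5mC-high runs of the 42 bp lane lay towards the distal ends of their chromosomes. At chromosome 11, 115000001 to 121000000, the 42 bp ratio was 1.62 (1.58 to 1.65), and all 6 libraries were read-rich there, from 1.91 times the median window in IgG ChIP to 4.07 in 5mC replicate 1. At chromosome 8, 122000001 to 127000000, the ratio was 1.88 (1.84 to 1.92), with levels of 1.85 to 4.98. At chromosome 4, 151000001 to 156000000, it was 1.76 (1.72 to 1.80). In the last of these the 50 bp ratio was 1.12 (1.04 to 1.203), and in the first 2 its intervals, 0.995 to 1.11 and 0.970 to 1.09, covered 1. Not every long run was read-rich in all libraries. At chromosome 7, 20000001 to 24000000, the 42 bp ratio was 1.72 (1.64 to 1.80) and the 50 bp ratio 1.12 (1.01 to 1.24). Only 5mC replicate 1 (1.35) was above its median there. The other libraries stood at 0.665 (H2A.B) to 0.893 (5mC replicate 3), with 5mC replicate 2 at 0.783. H2A.B was also below its median at chromosome 1, 182000001 to 185000000 (0.959) and 191000001 to 195000000 (0.937), where the other libraries were above theirs.

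ChIP-high runs were shorter, 139 runs of which 7 reached 3 Mb. The longest, chromosome 1, 137000001 to 143000000, had a 42 bp ratio of 0.540 (0.520 to 0.560), with H2A.B at 1.85 times its median and 5mC replicate 1 at 1.18. The 50 bp ratio there was 0.973 (0.912 to 1.04). At chromosome 15, 66000001 to 70000000, the ratio was 0.609 (0.571 to 0.649), and there both libraries were read-poor, at 0.595 and 0.831. A low ratio thus came with high H2A.B in one run and with few reads of either library in another.

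Position along the chromosome moved with the 42 bp ratio. In the last 10 Mb of the 19 autosomes its mean log2 ratio was 0.04, and 40 to 50 Mb from the end it was -0.24. Without chromosome 12 these values were 0.04 and -0.25. The 50 bp means were 0.03 and -0.003 in the same bins. Counted from the start, the first 10 Mb stood at -0.19 and 0.04, and 10 to 20 Mb at -0.28 and -0.001. The median 100 kb window stood at -0.20 in the 42 bp lane and -0.01 in the 50 bp lane, so bin means are to be read against these. Bins share chromosomes of unequal length, and no test was made.

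Among whole autosomes the 42 bp ratio ranged from 0.892 on chromosome 14 to 1.2 on chromosome 12, with 7 intervals above 1, 9 below and 3 that covered it. The 50 bp ratio ranged from 0.962 on chromosome 8 to 1.06 on chromosome 16, with 2 above, 2 below and 15 that covered 1. The SD over the 19 autosomes was 0.0810 and 0.0192. By summed reads chromosome 12 (1.2, interval 1.19 to 1.21) stood above the next, chromosome 4 (1.08, 1.07 to 1.09) and chromosome 17 (1.07, 1.06 to 1.08), whose intervals overlapped. By the median of its 100 kb window ratios, relative to that of all windows, chromosome 12 was at 1.04, below chromosomes 17 (1.07), 5 (1.07), 1 (1.07), 7 (1.06), 8 (1.05) and 11 (1.04). In the 50 bp lane chromosome 12 was at 0.996 (0.979 to 1.01). The lowest 42 bp ratios, on chromosomes 14, 18 and 3, were 0.892, 0.900 and 0.906, and their 50 bp ratios were 1.01, 0.999 and 0.993. In the 50 bp lane chromosome 16 (1.06) was followed by chromosomes 5 (1.02) and 14 (1.01), and the lowest after chromosome 8 were 10 (0.982) and 6 (0.987). Over 19 autosomes the order of the 2 ratios agreed at rho 0.0825.

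Chromosome 1, whose level differed between the flow cells, was close to even within each lane. It stood at 0.987 (0.980 to 0.994) and 1.01 (0.997 to 1.02) in the lane-mate ratios, against 0.726 and 0.741 in the ratios between lanes for 5mC and ChIP. Chromosome 11 stood at 1.05 and 1.00 within lanes and at 0.926 and 0.881 between them. Chromosome 8 stood at 1.05 and 0.962, against 0.956 and 0.872, and chromosome 6 at 0.908 and 0.987, against 0.817 and 0.889.

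**Figure D5:**
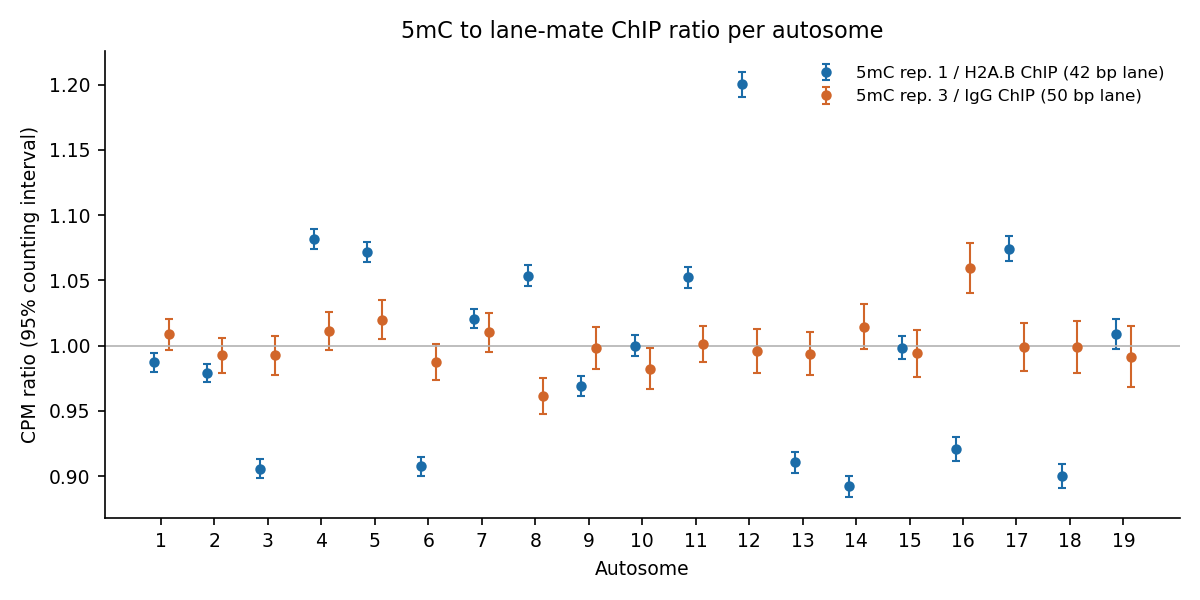
CPM ratio of 5mC to the lane-mate ChIP library (vertical axis, bars are 95% counting intervals) for each autosome (horizontal axis). The 42 bp lane spreads from 0.892 to 1.2 with chromosome 12 highest, and the 50 bp lane stays between 0.962 and 1.06.

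In 10 kb windows the 50 bp lane was too shallow for most calls, with a median of 3 and 2 reads. It called 564 windows 5mC-high (0.241%) and 1386 ChIP-high (0.592%), and the 42 bp lane 17478 (7.46%) and 9463 (4.04%). Both lanes called 89 windows 5mC-high, 0.509% of the 42 bp calls and 15.8% of the 50 bp calls, and 72 ChIP-high, 0.761% and 5.19%. In opposite directions they called 127 windows 5mC-high in the 42 bp lane and ChIP-high in the 50 bp lane, 0.727% of the 42 bp calls, and 28 the reverse way, 0.296%. The 127 windows outnumbered either set called alike, but the 50 bp lane also called more windows ChIP-high than 5mC-high. Beside its ChIP-high share of all windows, 0.592%, stood 0.727% for the 127 and 0.761% for the 72. Beside its 5mC-high share, 0.241%, stood 0.509% for the 89 and 0.296% for the 28. The 5 windows of highest lower bound had no IgG ChIP read. The first, chromosome 11, 107810001 to 107820000, held 29 reads of 5mC replicate 1, 66 of H2A.B and 11 of 5mC replicate 3. The lowest ChIP-high window, chromosome 8, 125520001 to 125530000, held no read of 5mC replicate 1 or 3, beside 42 H2A.B reads and 7 IgG ChIP reads. 5mC replicate 2, outside the pairs, held 9 reads there, 1.8 times its median. In the 89 windows 5mC replicate 2 stood at 2.93 and IgG MeDIP at 3.16 times their level in windows called in neither lane. In the 72 ChIP-high windows they stood at 0.945 and 0.941, close to that level.

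Relative to neighbouring positions, the lane mates of the 50 bp lane shared exact read positions more often than any other pair of libraries. Those of the 42 bp lane did not stand out by this measure, although they shared more positions in number, 18374 against 10378. In the 100 kb windows kept, 2.08% of the IgG ChIP positions were also positions of 5mC replicate 3, against 0.0657% when the positions were moved by 50 or 100 bp, 31.7 times as many. The highest value among the other 14 pairs of the 6 libraries was 17.5 times, for IgG ChIP with IgG MeDIP, which came from different lanes of the same flow cell. For 5mC replicate 1 and H2A.B it was 3.15 times, with 1.42% of the positions of 5mC replicate 1 shared, below 4.77 for 5mC replicate 1 with 5mC replicate 3, 4.89 with IgG ChIP and 6.39 with IgG MeDIP. The lane mates 5mC replicate 2 and IgG MeDIP stood at 5.60. Positions with 5 or more reads in H2A.B recurred in 5mC replicate 1 at 80.9%, and in 5mC replicate 2, a deeper library of another lane, at 33.5%. With all positions shared between lane mates left out, rho between the 2 lane-mate ratios was 0.0650 and the spread of the 50 bp ratio 1.06, close to the values with them.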

How the data were processed

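The series gives 1 list of aligned reads per library. Per the submitters' processing notes, Bowtie, FastQC and build mm9 were used. Alignment settings and the treatment of multiple matches are not stated there or in the labels. The score column deposited by the authors is 255 in every read and was not used. In all, 9 malformed lines were skipped, and the 201263 IgG MeDIP reads found in the list of 5mC replicate 2 were removed from the latter, as were 2691 reads without a strand. Distinct reads were counted in 10 kb, 100 kb and 1 Mb windows of autosomes. Windows with a mean CPM of the 4 libraries under 25% of the median, or with any library above 10 times its own median, were left out, which kept 234301, 23972 and 2411. Ratios used CPM over the windows kept, with a pseudocount of 0.5 reads on the log2 scale and none in ratios with intervals. With 1 library per group no p was computed. Replicates were not averaged, and whether their cells were cultured separately is not stated in the labels.

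Named windows are those called in both lanes whose bound nearer to 1 lay farthest from it, 10 per direction (5 in other window sizes), and the 5 of each order with the widest gap between bounds among opposite calls. Named autosomes are the 3 highest and 3 lowest of each lane and chromosomes 1, 6, 8 and 11. Runs of 1 Mb windows, the spread and strand measures, the ranked groups, distance from the distal end, the offset positions and 1 Mb windows summed from the 100 kb windows kept were chosen after the data were seen. The pairs and window sizes were chosen with earlier results of these data known. Alternatives covered window size, filter, pseudocount, scaling, strand, depth, shared positions and exchanged partners. A rho counted as moved when it changed by 0.05 or more. The scripts were tested on simulated counts. Python 3.11.15, numpy 2.4.6, scipy 1.17.1 and pandas 2.3.3 were used. No mm9 annotation was used, so the planned gene lists were not analysed here.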

Additional observations from a re-analysis of the deposited data

Results flagged for a closer look

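On 2 autosomes the lanes lay on opposite sides of 1 with intervals that excluded it. On chromosome 8 the ratio of 5mC to its lane mate was 1.05 in the 42 bp lane and 0.962 in the 50 bp lane. On chromosome 16 it was 0.921 and 1.06. Single 100 kb windows also differed in direction, 38 that were 5mC-high in the 42 bp lane and ChIP-high in the 50 bp lane, and 86 the other way round. Each lane has 1 library per assay, so the difference between lanes was not tested.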

How the results depend on the processing

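The agreement of the 2 lane-mate ratios (rho 0.0640) was reversed with partners exchanged (-0.438) and was higher in 1 Mb windows (0.124). Under the other 14 alternatives it was 0.0276 (10 kb windows) to 0.0785 (at least 10 reads in each library), and 0.0364 on the plus strand. The tolerance of 0.05 used to compare them is nearly as large as rho, so of these values only the sign is read as unchanged. The 67 windows that were 5mC-high in both lanes became 13 with a minimum ratio of 2, 117 with no minimum, 306 with all reads as listed and 0 in 1 Mb windows. The 136 that were ChIP-high in both became 29 with a minimum ratio of 2, 1081 with all reads, 47 at equal depth, 65 after division by the 5 Mb median, 71 with partners exchanged, 72 in 10 kb and 1 in 1 Mb windows. The 124 called in opposite directions became 35 with a minimum ratio of 2, 905 with all reads, 56 at equal depth, 2021 with partners exchanged and 0 in 1 Mb windows. Autosomes with an interval off 1 in the 50 bp lane numbered 4, and 8 without the window filter and 19 with partners exchanged.

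The spread of the 42 bp ratio (8.19) moved to 13.96 with all reads, 2.45 at equal depth, 5.15 and 4.66 on the plus and minus strands, 2.39 in 10 kb and 38.5 in 1 Mb windows, and that of the 50 bp ratio (1.04) to 4.32 with all reads. These alternatives were chosen after seeing the data. Fewer reads per window lower this measure by construction. For the other changes the cause was not tested.

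Some 42 bp ratios of autosomes crossed 1. Chromosome 1 reached 1.07 as a median of windows. With all reads chromosomes 7 and 13 stood at 0.995 and 1.01, and without the filter chromosomes 7 and 9 at 0.991 and 1.29. With partners exchanged chromosomes 2, 8, 9 and 11 stood at 1.06, 0.919, 1.07 and 0.927. In the 50 bp lane chromosomes 5 and 8 stood at 0.902 and 1.102 with partners exchanged, and chromosome 10 at 1.00 (1.001) with all reads.

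No paired analysis was possible because each ChIP group has 1 library and no test was made. Leaving out a 5mC replicate leaves a single ratio, so agreement has no such alternative. Depth limits the 50 bp lane, whose median 100 kb window held 30 and 20 reads, and one alternative scaling moved the median log2 ratio by -0.04 and 0.01.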

Other observations

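The filter meant for repeats also left out windows dense in 5mC replicate 1. Of the 33 windows of 100 kb above 10 times a library's median, 21 exceeded it in 5mC replicate 1 alone, and 7 of these lay on chromosome 12. At chromosome 12, 114000001 to 114100000, it held 961 reads, against 708 of H2A.B, 43 of 5mC replicate 3 and 31 of IgG ChIP. At chromosome 3, 93000001 to 93100000, the counts were 673, 430, 30 and 22. Both windows held more reads of 5mC replicate 1 than of H2A.B, a library with over 5 times its distinct reads. At chromosome 1, 24600001 to 24700000, IgG ChIP alone exceeded the limit, with 296 reads beside 94 of 5mC replicate 3, 91 of 5mC replicate 1 and 767 of H2A.B.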
